A study of Rattus norvegicus with 13 samples.

Results

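Hepatocytes make most of the proteins of blood plasma and carry the urea cycle, the breakdown of amino acids and the metabolism of drugs. Their genes are switched on together by liver-enriched transcription factors, among them HNF1, HNF4 and the C/EBP family, and are largely silent in bile duct epithelium and in fibroblasts. The genes described here are 36 such genes listed by symbol, of which 35 were measured, out of 14217 genes on the arrays. Kng1, the kininogen gene, was skipped because its probe set is annotated to several genes. Each gene is represented by its probe set with the highest mean over all 13 arrays.

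The arrays came from rat cholangiocarcinoma, a cancer of bile duct epithelium. There were 4 tumours, snap-frozen, that grew in the livers of young adult male Fischer 344 rats from BDEsp cells, spontaneously transformed bile duct epithelial cells placed in the bile duct. The other arrays were from cells cultured in rat tail type I collagen gel. The array labelled as epithelial cells in co-culture and that labelled as fibroblastic cells in co-culture came from gels holding both lines. The cholangiocarcinoma line grown alone (clone H10, the epithelial line) gave 3 arrays, and the fibroblastic line, selected for smooth muscle alpha-actin and grown alone (clone E4), gave 4. Both lines were derived from such tumours, carry the Fischer 344 background and are single clones. No liver free of tumour was among the arrays analysed here, so the share of liver RNA in a tumour was not estimated. Values are log2 RMA expression, in which a difference of 1 is a 2-fold change, and arrays have no counting depth, so their number limits the precision.

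The labels were checked against cell markers. The median of 10 bile duct epithelial genes was 12.24 to 12.83 in the tumours, 12.34 to 13 on the epithelial arrays and 4.19 to 4.46 on the fibroblastic arrays. The median of 9 fibroblast genes was 11.92 to 12.31 in the tumours, 5.57 to 5.85 on the epithelial arrays and 13.43 to 13.96 on the fibroblastic arrays. Both co-culture arrays carried both sets: the fibroblast genes stood at 10.83 on the array labelled epithelial, and the bile duct genes at 12.26 on the array labelled fibroblastic. Neither co-culture array can therefore be read as RNA of the line it is labelled with, and each is called here by its label only. No label says whether replicates of a line were separate cultures, so p-values measure the spread between these arrays. The 4 fibroblastic arrays fell into pairs, with a correlation over all genes of 0.987 between arrays 1 and 3 and of 0.990 between arrays 2 and 4, against 0.947 to 0.961 across the pairs. The labels do not name a difference between these pairs.

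Promoter sequence was available from RefSeq (build GRCr8) for 29 of the 35 genes, in 33 windows of 250 bases upstream of an annotated start. Each window was searched on both strands for the HNF1 half-site GTTAAT, for TTGCNNAA as a C/EBP motif and for TGNACTTTG as an HNF4 motif. Some genes have overlapping windows for several starts. The half-site was found in 11 of the 33 windows, of 9 genes (33.3%), against 6.45% of all 33469 windows of the same length. The C/EBP letters were also in 11 of 33, of 10 genes (33.3%), against 9.22% of all windows, and the HNF4 letters in 1 (3.03%), against 1.06%. The windows of these genes were somewhat richer in A and T, at a median of 53.2%, against 48.8% over all windows. A match describes letters and not a bound site. Alb and Fgb are printed because both carry the first and the second motif and because their RNA moved together among the tumours. Cyp3a9, which did not follow them, is printed for comparison and holds none of the motifs. Genes that did follow them, among them Ttr, Fgg, Otc and Cyp2c11, held none either, and Cp, which broke the pattern, held a C/EBP match. Whether the motifs go with the pattern among tumours was not tested. Capitals mark the matches, at -82 (half-site) and -144 (C/EBP) from the Alb start and at -90 and -141 from the Fgb start. A match on the other strand reads as its reverse complement, and none of the printed matches overlap. The windows, all on the minus strand, are chr14:17906980-17907229 for Alb, chr2:170700876-170701125 for Fgb and chr12:21960161-21960410 for Cyp3a9.
Alb: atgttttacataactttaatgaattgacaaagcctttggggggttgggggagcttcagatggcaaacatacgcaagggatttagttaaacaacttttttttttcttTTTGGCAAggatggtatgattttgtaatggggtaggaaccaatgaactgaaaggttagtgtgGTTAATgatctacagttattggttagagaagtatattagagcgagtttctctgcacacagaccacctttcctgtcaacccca
Fgb: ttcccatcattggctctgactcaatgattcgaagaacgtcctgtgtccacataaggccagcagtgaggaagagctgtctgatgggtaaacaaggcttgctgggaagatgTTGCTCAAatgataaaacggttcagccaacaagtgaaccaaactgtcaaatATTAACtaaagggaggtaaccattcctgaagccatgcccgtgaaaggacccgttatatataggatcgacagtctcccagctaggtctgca
Cyp3a9: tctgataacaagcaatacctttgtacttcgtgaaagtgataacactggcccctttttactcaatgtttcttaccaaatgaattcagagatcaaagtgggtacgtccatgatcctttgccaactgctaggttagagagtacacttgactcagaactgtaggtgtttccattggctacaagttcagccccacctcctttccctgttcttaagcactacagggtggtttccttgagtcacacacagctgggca

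Tumours were compared with each line grown alone, neither of which is a hepatocyte line. Of the 35 genes, 34 rose in the tumours relative to the epithelial line and 0 fell, while 18.9% of all genes were called higher and 52.1% in either direction. Relative to the fibroblastic line all 35 rose, against 27.3% of all genes called higher and 60.9% in either direction. The median log2 difference over the 35 genes was 5.28 from the epithelial and 5.56 from the fibroblastic line, beside -0.17 and -0.07 over all genes. Calls were made at a limma adjusted p under 0.05 over all genes. These means hide a wide spread: the genes stood far above the cultured cells in tumours 1 and 4, lower in tumour 3, and near the cultured level in tumour 2. For Alb the SD was 3.41 among the tumours, against 0.18 in the epithelial and 0.21 in the fibroblastic line. The fit gives each gene a single spread for all groups. SEs and adjusted p-values of such genes rest on that assumption, which their values do not meet.

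**Figure D1:**
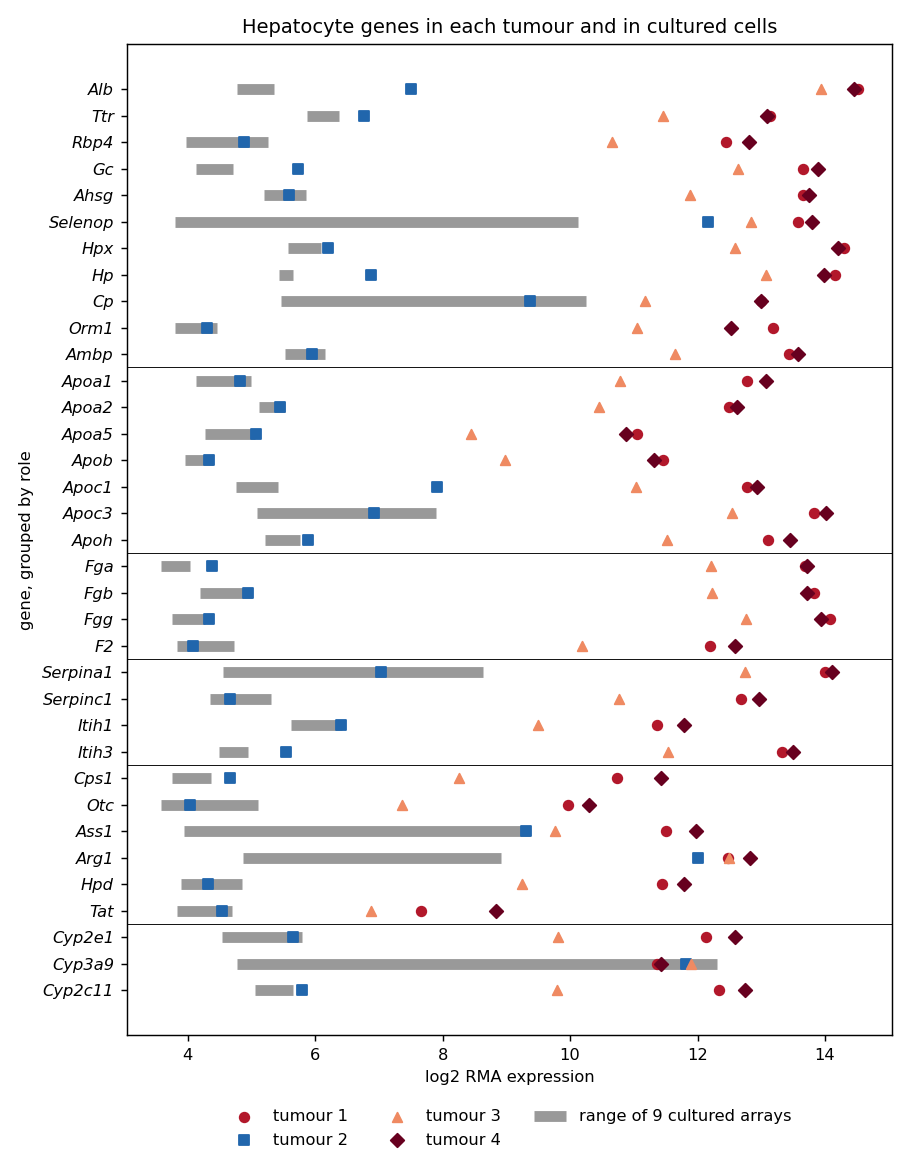
Level of each of the 35 measured genes (log2 RMA expression, horizontal axis) in each of the 4 tumours (coloured symbols), with the range of the 9 cultured arrays as a grey bar; black lines separate the roles. All 4 tumours lay above all 9 cultured arrays for 15 of the 35 genes (10.3% of all genes). Tumours 1, 3 and 4 did so, whatever the level of tumour 2, for 34 (12.7% of all genes).

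Tumour 2 was the lowest tumour for 34 of the 35 genes and tumour 3 the second lowest for 33 of those, an order held by 12.3% of all genes. The median level over the 35 genes was 12.77 in tumour 1, 5.66 in tumour 2, 11.17 in tumour 3 and 12.97 in tumour 4. On the co-culture arrays it was 4.96 and 4.97, on the epithelial arrays 4.92 to 5.16 and on the fibroblastic arrays 4.67 to 4.93. The range among tumours reached at least 4 log2 units for 30 of the 35 genes (85.7%), against 1.36% of all genes. Its median was 7.12 over these genes and 0.39 over all genes. Tumours 1 and 4 were close, with a median difference of 0.17 (tumour 4 minus tumour 1). In whole tissue, fewer hepatocytes and less RNA per hepatocyte cannot be told apart, and which cells made this RNA was not tested. All 4 tumours lay above all 9 cultured arrays for 15 of the genes (10.3% of all genes did so), and tumours 1, 3 and 4 did so, whatever the level of tumour 2, for 34 (12.7% of all genes).

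Among the plasma carriers, all 11 rose relative to both lines. Albumin, the main protein of plasma and carrier of fatty acids, showed the pattern in full. Alb stood at 14.51, 7.5, 13.94 and 14.46 in tumours 1 to 4 in that order, against 4.78, 5.05 and 5.11 in the epithelial line and 5.06, 5.35, 4.87 and 5.26 in the fibroblastic line. Every tumour was above every cultured array, but tumour 2 by only 2.16 log2 units over the highest of them. The log2 difference of Alb was 7.62 (SE 1.39, limma adjusted p = 0.00124) from the epithelial line and 7.47 (SE 1.29, adjusted p = 0.000583) from the fibroblastic line. Its second probe set followed, at 8.70 in tumour 2 and 14.49 to 14.69 in the other tumours.

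Gc, the vitamin D binding protein, was at 13.66, 5.73, 12.63 and 13.89 in the tumours, against 4.41, 4.15 and 4.35 in the epithelial line and 4.18, 4.13, 4.45 and 4.26 in the fibroblastic line. Tumour 2 was again the lowest and again above the cultured cells. The second probe set of Gc had the same order, at 4.96 in tumour 2 and 7.74 in tumour 3. Ttr, which carries thyroid hormone and the retinol binding protein, read 13.13, 6.77, 11.45 and 13.09 in the tumours, against 5.94, 6.10 and 6.23 in the epithelial line and 6.13, 5.88, 6.01 and 6.15 in the fibroblastic line. Its log2 difference was 5.02 (SE 1.22, adjusted p = 0.00632) from the epithelial line. Its partner Rbp4, which carries retinol, was at 12.45, 4.88, 10.66 and 12.81 in the tumours, 4.82, 4.50 and 5.26 in the epithelial line and 4.36, 3.98, 4.24 and 4.17 in the fibroblastic line. Here tumour 2 lay inside the range of the epithelial arrays, and tumour 2 alone differed from that line by 0.02.

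The heme carrier Hpx, the hemoglobin binding protein Hp, the mineral binding fetuin Ahsg, the alpha-1-microglobulin precursor Ambp and the acute phase protein Orm1 stood at 12.53 to 14.30 in tumours 1 and 4. In tumour 2 they ranged from 4.30 (Orm1) to 6.88 (Hp). Orm1, which binds drugs and rises in inflammation, had the widest range among tumours of the carriers (8.87) and was higher in tumour 1 (13.18) than in tumour 4 (12.53). Hp kept 1.22 log2 units above the highest cultured array in tumour 2, while Orm1, Ahsg and Ambp lay inside the cultured range.

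Selenop and Cp were the carriers that broke the pattern. Selenop, the plasma selenium carrier, was at 13.57, 12.17, 12.84 and 13.79 in the tumours, against 4.01, 3.80 and 3.85 in the epithelial line and 9.04, 10.12, 8.72 and 9.92 in the fibroblastic line. On this probe set it was high in every tumour including tumour 2 and already present in the fibroblastic line. Its log2 difference was 9.20 (SE 0.42, adjusted p = 9.33e-08) from the epithelial line and 3.64 (SE 0.39, adjusted p = 1.96e-05) from the fibroblastic line. A second Selenop probe set read 5.91, 3.88, 4.13 and 6.75 in the tumours, with means of 3.52 in the epithelial and 3.68 in the fibroblastic line, and so was low in tumour 2 and in the fibroblastic line. With the mean of both probe sets the difference of Selenop from the epithelial line was 5.42 (limma adjusted p = 1.29e-05). The copper ferroxidase gene Cp read 13, 9.37, 11.17 and 12.99 in the tumours, 5.46, 6.35 and 7.52 in the epithelial line and 6.24, 10.07, 7.35 and 8.87 in the fibroblastic line. Tumour 2 did not exceed fibroblastic array 2 for Cp, so the groups overlapped, and the differences were 5.19 (SE 1.04, adjusted p = 0.00218) from the epithelial and 3.5 (SE 0.97, adjusted p = 0.00953) from the fibroblastic line. A second Cp probe set read 9.09 in tumour 2 and 8.52 to 9.75 in the others, and the remaining one 8.68 and 11.6 to 13.29, so the spread of Cp among tumours depended on the probe set.

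All 7 apolipoprotein genes, which encode the proteins of plasma lipoproteins, rose relative to both lines. Apoa1, the main protein of high density lipoprotein, was at 12.77, 4.82, 10.79 and 13.07 in the tumours, against 5.00, 4.48 and 4.14 in the epithelial line and 4.54, 4.70, 4.37 and 4.69 in the fibroblastic line. Tumour 2 lay within the range of the cultured arrays, and the log2 difference from the epithelial line was 5.82 (SE 1.57, adjusted p = 0.0105). The partner protein Apoa2, the triglyceride regulator Apoa5, the low density lipoprotein protein Apob, the lipase inhibitor Apoc3 and the phospholipid binding Apoh had log2 differences of 4.04 to 6.32 from the epithelial line and of 4.30 to 5.52 from the fibroblastic line. Of these, only Apoh and Apoa5 were above the highest cultured array in tumour 2, by 0.13 and 0.01. Apob had a second probe set that stayed at 5.76 to 6 in all tumours, with means of 5.45 in the epithelial and 5.35 in the fibroblastic line. With the mean of both probe sets the difference of Apob from the epithelial line was 2.61 (limma adjusted p = 0.0116) in place of 4.79. Apoc1, which macrophages also make, was at 12.77, 7.92, 11.03 and 12.93 in the tumours, and 4.76 to 5.42 in the cultured arrays. It kept the largest margin of the apolipoproteins in tumour 2, at 2.50 log2 units over the highest cultured array.

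The 4 clotting genes rose relative to both lines, and their ranges among tumours were 8.5 to 9.73 log2 units. The fibrinogen chains Fga, Fgb and Fgg lie on chromosome 2, and their products assemble into the protein that forms the clot. Fgg was at 14.08, 4.34, 12.76 and 13.93 in the tumours, against 3.93, 4 and 4.07 in the epithelial line and 4.13, 3.76, 4.27 and 3.77 in the fibroblastic line. Tumour 2 exceeded the highest cultured array by 0.07 and lay 8.41 below tumour 3. Fga read 13.69, 4.39, 12.21 and 13.72 in the tumours, against 4.04, 3.87 and 3.95 in the epithelial line and 3.59, 4.01, 3.94 and 3.96 in the fibroblastic line. Fgb read 13.83, 4.95, 12.23 and 13.72 in the tumours, 5.01, 4.70 and 4.80 in the epithelial line and 4.81, 4.45, 4.20 and 4.29 in the fibroblastic line. In tumour 2 Fgb was thus below the highest epithelial array. The log2 difference from the epithelial line was 7.28 (SE 1.90, adjusted p = 0.00891) for Fgg, 7.05 (SE 1.82, adjusted p = 0.00841) for Fga and 6.35 (SE 1.72, adjusted p = 0.0108) for Fgb. The other 2 Fgb probe sets stayed between 3.70 and 4.28 in all tumours, and their means in the lines were 3.89 to 4.09. They were thus low in tumours and lines alike, and nothing of the pattern was seen in them. With the mean of the 3 the difference of Fgb from the epithelial line was 2.11 (limma adjusted p = 0.0129). The second Fga probe set had the pattern, at 4.39 in tumour 2 and 8.61 to 11.19 in the other tumours. F2, the prothrombin gene, ranged from 4.09 in tumour 2 to 12.59 in tumour 4 and differed by 5.32 from the epithelial line.

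Of the protease inhibitors, Serpina1, the inhibitor of neutrophil elastase, was also expressed by the epithelial line. It stood at 14, 7.03, 12.75 and 14.10 in the tumours, against 5.71, 7.79 and 7.03 in the epithelial line and 4.71, 4.56, 5.45 and 5.26 in the fibroblastic line. Tumour 2 lay within the epithelial arrays and above the fibroblastic ones. The log2 difference was 5.13 (SE 1.42, adjusted p = 0.0119) from the epithelial and 6.98 (SE 1.31, adjusted p = 0.00102) from the fibroblastic line. Serpinc1 encodes antithrombin, and Itih1 and Itih3 encode hyaluronan binding heavy chains. These genes differed by 5.15, 3.74 and 6.25 from the epithelial line, and of them Itih3 alone was above all cultured arrays in tumour 2, by 0.59.

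Of the enzymes of the urea cycle and of tyrosine breakdown, all 6 were called higher than in both lines, 2 of them narrowly. Cps1, the mitochondrial enzyme that opens the urea cycle, was at 10.73, 4.66, 8.26 and 11.42 in the tumours, against 4.10, 3.93 and 4.21 in the epithelial line and 4.03, 3.76, 4.05 and 4.21 in the fibroblastic line. Every tumour was above the cultured arrays, tumour 2 by 0.28, and the difference from the epithelial line was 4.69 (SE 1.25, adjusted p = 0.00995). Otc, the next enzyme of the cycle, read 9.97, 4.04, 7.36 and 10.29 in the tumours, 4.85, 4.41 and 5.10 in the epithelial line and 4.03, 3.98, 3.59 and 4.40 in the fibroblastic line. Tumour 2 was below all 3 epithelial arrays, and the difference of 3.13 from that line (SE 1.19, adjusted p = 0.0478) was not called in 15 of the alternative settings.

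Ass1, which joins citrulline to aspartate, was a product of the epithelial line too. It was at 11.50, 9.31, 9.76 and 11.98 in the tumours, against 9.34, 8.65 and 9.37 in the epithelial line and 3.94, 4.26, 4.33 and 4.93 in the fibroblastic line. Tumour 2 lay among the epithelial arrays. Its difference from the epithelial line, 1.51 (SE 0.58, adjusted p = 0.0476), was lost in 13 of the alternative settings, whereas that from the fibroblastic line was 6.27 (SE 0.53, adjusted p = 3.83e-06).

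Arg1, the last enzyme of the urea cycle and also an enzyme of alternatively activated macrophages, was high in tumour 2 as well. It was at 12.48, 12, 12.50 and 12.82 in the tumours, against 6.02, 6.48 and 4.87 in the epithelial line and 8.28, 5.99, 8.91 and 5.89 in the fibroblastic line. Its 4 tumours spanned 0.82 log2 units and were well separated from the cultured cells. The difference was 6.66 (SE 0.71, adjusted p = 4.85e-05) from the epithelial and 5.18 (SE 0.66, adjusted p = 6.79e-05) from the fibroblastic line. Of the 6 Kupffer cell and macrophage genes measured, C1qa, C1qb and Csf1r spanned 0.38, 0.65 and 0.94 log2 units among the tumours, and Cd163, Clec4f and Cd5l spanned 1.67, 3.14 and 4.84. The part of macrophages in the Arg1 level was not tested.

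Hpd, the dioxygenase of tyrosine breakdown, was at 11.44, 4.32, 9.24 and 11.78 in the tumours, 4.28, 4.34 and 4.36 in the epithelial line and 3.90, 3.99, 4.02 and 4.10 in the fibroblastic line. Tat, the aminotransferase that starts the same pathway, showed the same order with a smaller range among the tumours (4.29, against 7.46 for Hpd). Its step between tumours 4 and 1 was larger (1.17, against 0.33). It read 7.66, 4.54, 6.87 and 8.83 in the tumours, 4.07, 3.84 and 4.40 in the epithelial line and 4.17, 4.07, 4.08 and 4.29 in the fibroblastic line. For Tat the differences were 2.87 (SE 0.75, adjusted p = 0.00887) from the epithelial and 2.82 (SE 0.69, adjusted p = 0.00505) from the fibroblastic line.

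Of the cytochromes P450, the enzymes that oxidise drugs and steroids, Cyp2e1 and Cyp2c11 followed the pattern and Cyp3a9 did not. Cyp2e1, which oxidises ethanol in hepatocytes around the central vein, was at 12.13, 5.66, 9.81 and 12.58 in the tumours, against 5.55, 5.40 and 5.80 in the epithelial line and 4.81, 4.54, 5.26 and 4.93 in the fibroblastic line. The difference from the epithelial line was 4.46 (SE 1.30, adjusted p = 0.0150), with tumour 2 inside its range. Cyp2c11, the main P450 of the male rat liver, read 12.34, 5.79, 9.80 and 12.74 in the tumours, 5.50, 5.53 and 5.50 in the epithelial line and 5.66, 5.14, 5.63 and 5.48 in the fibroblastic line. Cyp3a9 was at 11.37, 11.81, 11.90 and 11.42 in the tumours, against 12.22, 12.31 and 11.33 in the epithelial line and 5.83, 5.82, 5.83 and 4.77 in the fibroblastic line. It was the only gene of the set for which tumour 2 was not the lowest, and the only one not called against the epithelial line (log2 difference -0.33, SE 0.31, adjusted p = 0.402). Against the fibroblastic line it rose by 6.06 (SE 0.29, adjusted p = 6.99e-08). The bile duct keratin gene Krt19 was likewise even among the tumours, at 12.92 to 13.8.

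**Figure D2:**
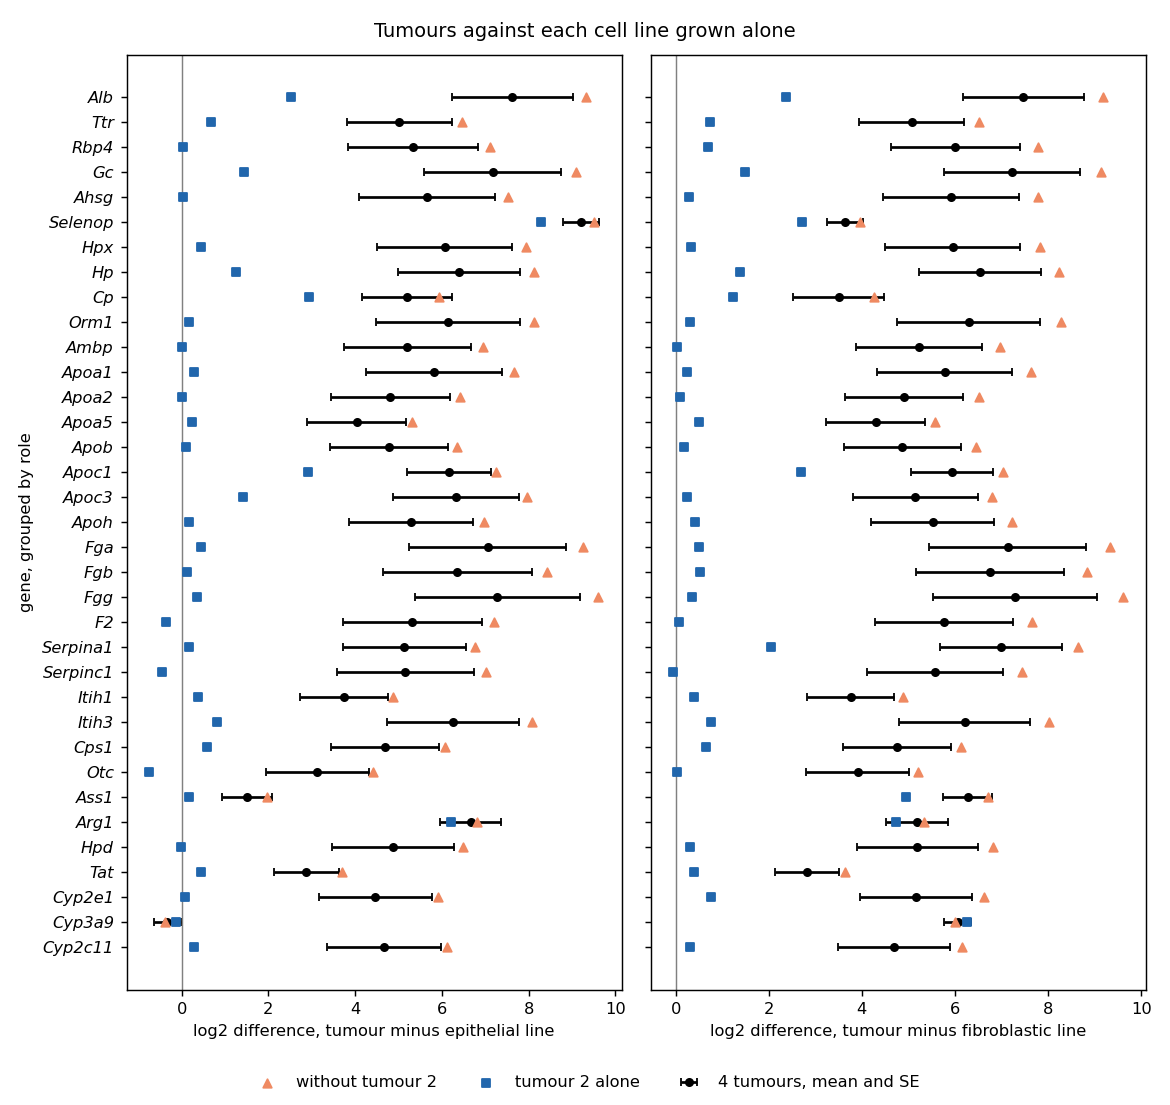
Log2 difference of each gene between tumours and the epithelial line (left) or the fibroblastic line (right): black points and bars give the 4 tumours with the standard error of the fit, triangles the fit without tumour 2, squares tumour 2 as the only tumour. Without tumour 2 the median difference was 6.98 and 6.96, and with tumour 2 alone 0.28 and 0.51.

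Leaving out tumour 2 raised the median difference to 6.98 from the epithelial line and 6.96 from the fibroblastic line, with 34 and 35 genes called higher and Cyp3a9 again the exception. That setting called 17.9% and 25.3% of all genes higher. The limma adjusted p of Fgg against the epithelial line was then 2.74e-08. With tumour 2 as the only tumour, a setting added after seeing these data in which a lone array is assumed to vary like the lines, 6 genes were higher than in the epithelial line and 10 higher than in the fibroblastic line (6.45% and 11.7% of all genes). The 6 were Alb, Gc, Selenop, Hp, Apoc1 and Arg1, and all 6 were also higher than in the fibroblastic line. Alb differed by 2.52 (adjusted p = 0.000670) from the epithelial line in that setting.

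Among the 27 genes whose cultured arrays spanned at most 1.5 log2 units, the order of tumours 2 and 3 below tumours 1 and 4 held for all 27. The size of the step between tumours 4 and 3 varied from 0.52 for Alb to 3.16 for Cps1. Over all genes of a role, the median step was 1.5 for clotting genes, 1.62 for carriers, 2.08 for protease inhibitors, 2.16 for apolipoproteins, 2.37 for the urea cycle and tyrosine enzymes and 2.77 for the 3 P450s. The ranges of the roles overlapped, and Cyp3a9 among the P450s had a step of -0.47. The step was 2.95 for Cyp2c11 and 2.77 for Cyp2e1, against 0.91 for Hp and 1.17 for Fgg. The step was smaller for genes with higher levels in tumour 4 (Pearson r = -0.57, Spearman rho = -0.77 over the 27 genes). That is a description across genes that share the same arrays, levels of different probe sets are not amounts of RNA on 1 scale, and the highest deposited value was 14.69.

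**Figure D3:**
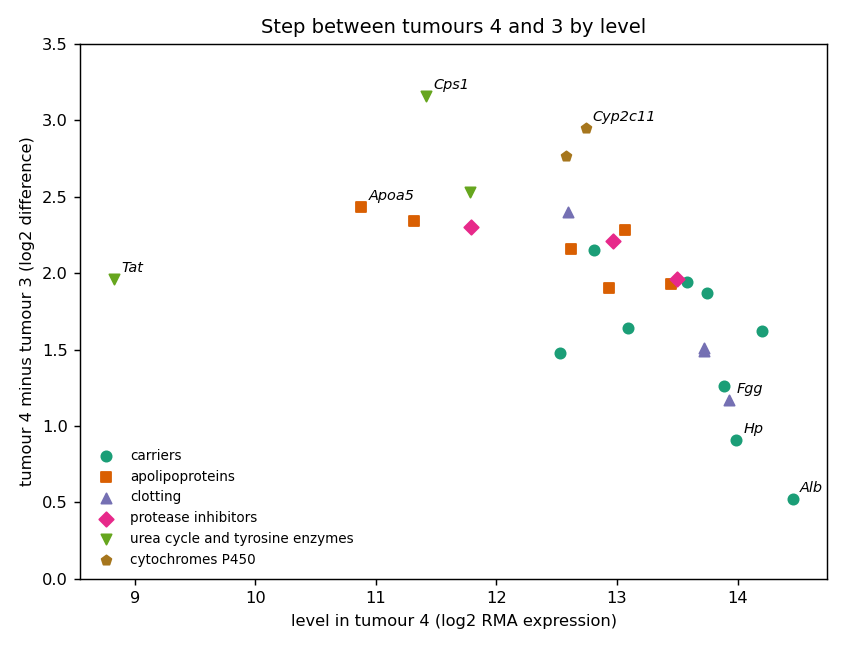
Difference between tumours 4 and 3 (log2) against the level in tumour 4 (log2 RMA expression) for the 27 genes with a narrow range in culture, with colour and shape giving the role. Alb (14.46, step 0.52) and Cps1 (11.42, step 3.16) mark the ends of the scale.

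Other genes of the liver, from lists that the set of 36 does not contain, were laid beside it. Of 34 other plasma protein genes measured, 31 rose relative to the epithelial line and 32 relative to the fibroblastic line, and 0 fell relative to either, with tumour 2 lowest for 34. The protease inhibitor Serpina3n (6.68) and the complement regulator C4bpa (6.36) had the largest differences from the epithelial line. Of 25 other P450 and conjugation genes, 21 and 23 rose, led by Cyp2c7 (6.16) and Cyp2c22 (5.71). Hepatocyte transporters and receptors rose in 13 and 13 of 14, with the glucose transporter Slc2a2 (4.49) and the bile acid transporter Slc10a1 (4.46) in front. Genes of amino acid metabolism rose in 12 and 15 of 19, such as the tryptophan enzyme Tdo2 (5.08) and the homogentisate enzyme Hgd (3.29). Of 7 genes of glucose metabolism, 7 and 7 rose, including Pck1 (5.19) and Fbp1 (4.50), both of glucose synthesis. The same order of tumours 2 and 3 as the lowest was held by 33 of the 34 plasma protein genes, 24 of the 25 P450 and conjugation genes, 14 of 14 transporters, 19 of 19 amino acid genes and 7 of 7 glucose genes.

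The transcription factors were mixed. Of 17 measured, 11 rose and 1 fell relative to the epithelial line, and 14 rose relative to the fibroblastic line. Hnf4a encodes a nuclear receptor that governs many hepatocyte genes and is also present in gut epithelium. It stood at 11.37, 10.71, 11.39 and 11.12 in the tumours. The epithelial arrays read 4.82, 8.35 and 5.66, and the fibroblastic arrays 4.70 to 5.16. Hnf4a was high in all 4 tumours, tumour 2 included, with a difference of 4.87 from the epithelial line (SE 0.64, adjusted p = 0.000173). The oxysterol receptor Nr1h3 had the next largest difference (3.00). Tumours 2 and then 3 were the lowest for 11 of the 17 factors. Among these were the bile acid receptor Nr1h4, at 7.13, 5.08, 5.69 and 6.99 in the tumours, and Onecut1, a factor shared by liver and bile duct, at 8.95, 3.66, 5.57 and 8.25 in the tumours (difference 2.68, SE 1.00, adjusted p = 0.0437). Foxa2 fell relative to the epithelial line by 1.62 on the log2 scale (SE 0.34, adjusted p = 0.00282).

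Genes with sex-biased expression in rat liver were examined because the tumours came from males. All 5 male-biased genes measured rose relative to both lines. All of them except Mup5, and all 4 genes listed as female-biased, were already counted in the lists above. Cyp2c13 was at 11.93, 4.25, 9.38 and 12.19 in the tumours, and Cyp3a2 at 11.33, 3.54, 8.96 and 12.35. Of 4 genes listed as female-biased, Cyp2c7, which male liver also expresses, rose relative to both lines, A1bg rose by 0.34 relative to the fibroblastic line alone, and Sult2a1 stayed at 3.22 to 3.52 in the tumours. Cyp2c12, the P450 known as female-specific in the rat, was at 8.58 in tumour 1 and at 3.87, 4.12 and 5.34 in tumours 2, 3 and 4, and it was not called (difference 1.75, SE 0.89, adjusted p = 0.121).

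Genes of the zones of the liver lobule were also listed. Of these, Cyp1a2, Hal, Sds, Pck1, Gls2 and Cyp2f4 were already counted in the lists above. Of 8 perivenous genes, the order of tumours 2 and 3 as the lowest was held by 3, namely Cyp1a2, Rgn and Oat. Cyp2e1, described above as active around the central vein, also held that order but is not in this list. A difference between the zones was not tested. Of those 8, 1 rose and 1 fell relative to the epithelial line, and 5 rose and 1 fell relative to the fibroblastic line. The perivenous P450 Cyp1a2 rose (3.15, SE 0.79, adjusted p = 0.00721), the glutamine synthetase gene Glul did not pass the test against the epithelial line (1.82, adjusted p = 0.0543), and Oat fell relative to both lines (-0.43 and -1.06). Of 7 periportal genes, 2 and 5 rose and 0 fell relative to either line, and all 7 had tumours 2 and then 3 as the lowest, with Pck1 and Hsd17b13 (2.46, adjusted p = 0.0512 against the epithelial line) at the top. Among 5 fetal and progenitor genes, Afp rose relative to both lines (1.66 and 1.64) and was at 6.95, 4.65, 5.26 and 7.25 in the tumours, and H19 rose by 0.69 relative to the epithelial and 0.59 relative to the fibroblastic line. Gpc3 was not called against the epithelial line (0.72, adjusted p = 0.302) and fell relative to the fibroblastic line (-4.43).

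**Figure D4:**
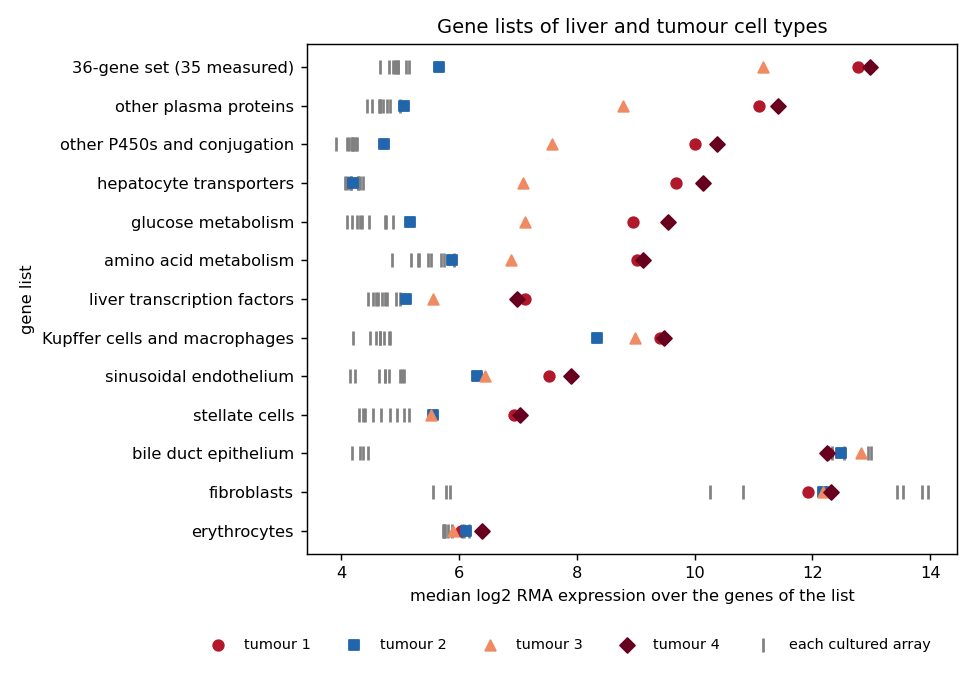
Median log2 RMA expression over the genes of each list, for each of the 4 tumours (coloured symbols) and each of the 9 cultured arrays (grey ticks). The hepatocyte lists separate tumours 1 and 4 from tumour 3 and tumour 2, while the bile duct and fibroblast lists stay within 12.24 to 12.83 and 11.92 to 12.31 in the tumours.

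Markers of other liver cells moved in part with the hepatocyte genes among the tumours, by less. Tumours 2 and then 3 were the lowest for 6 of 7 sinusoidal endothelial genes, 5 of 8 stellate cell genes and 2 of 6 Kupffer cell and macrophage genes. The median of 7 sinusoidal endothelial genes was 7.53, 6.31, 6.44 and 7.90 in tumours 1 to 4, and that of 8 stellate cell genes 6.94, 5.57, 5.52 and 7.04. The 6 Kupffer cell and macrophage genes had medians of 9.41, 8.34, 8.99 and 9.48. Within that list Clec4f, a defining marker of Kupffer cells in rodents, read 9.34, 6.20, 7.12 and 9.31, and Cd5l read 9.49, 4.65, 6.40 and 9.34. Both thus followed the hepatocyte genes, whereas C1qa and C1qb, with the largest differences of the list (6.78 and 6.59 from the epithelial line), did not. The part of these cells in the tumour levels was not tested. The endothelial genes Fcgr2b (7.29) and Lyve1 (3.48) and the perivascular and stellate genes Rgs5 (4.49) and Colec11 (2.03) had the largest differences from the epithelial line in their lists. The erythrocyte list stood at 6.04, 6.13, 5.90 and 6.40, with the globin Hbb at 9.22 to 11.49. Ahsp had the second largest difference from the epithelial line in that list, 0.43 (adjusted p = 0.0583). The median of 6 pancreas and gut genes was 5.25, 5.62, 5.39 and 5.18, and Vil1 and Cela1 had the largest differences. The bile duct genes were slightly lower in tumours 1 and 4 (12.27 and 12.24) than in tumours 2 and 3 (12.49 and 12.83). Relative to the epithelial line Krt19, Krt18, Cldn4 and Cftr fell, with log2 differences of -0.66, -0.75, -1.09 and -1.3, and Sctr rose (0.90). Cldn7 had the next largest difference (0.57) and was not called (limma adjusted p = 0.37). Col1a2 and Postn led the fibroblast list (8.65 and 8.49 from the epithelial line), and Col1a1, Col3a1, Col1a2, Postn, Tagln and Vim fell relative to the fibroblastic line, as did Des of the stellate list. Dcn and Lum, also fibroblast genes, rose relative to the fibroblastic line, by 6.71 and 7.48 (adjusted p = 2.95e-06 and 1.1e-07). As a sign of RNA quality, the 3' actin probe set exceeded the 5' one by 0.606 to 0.752 log2 units in the tumours, with tumour 2 at 0.693, and by 0.848 to 2.648 in culture. This excess was 1.716 and 1.045 on fibroblastic arrays 1 and 3, and 2.648 and 2.007 on arrays 2 and 4. The same measure for GAPDH was 0.151 and -0.038 on arrays 1 and 3, and 0.27 and 0.146 on arrays 2 and 4.

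The lines grown alone were compared to see which hepatocyte genes either line expresses by itself. The epithelial line was higher in 6 genes and lower in 1, against 20.9% and 16.6% of all genes and 37.4% in either direction. Most of the set was low in both lines: the 27 genes whose cultured arrays spanned at most 1.5 log2 units lay between 3.59 and 6.42 on all of them. The 2 largest positive differences were Cyp3a9 (6.39, SE 0.35, adjusted p = 4.01e-06) and Ass1 (4.76, SE 0.28, adjusted p = 5.88e-06), and the negative one was Selenop (-5.56, SE 0.34, adjusted p = 8.17e-06). Serpina1 was higher in the epithelial line by 1.85 (SE 0.47, adjusted p = 0.0155). Otc (0.79), Cyp2e1 (0.70) and Rbp4 (0.67) were called with differences of under 1 log2 unit at levels under 6 (adjusted p of 0.0262 to 0.0320). The count of 7 was 4 without epithelial array 1 and 3 without epithelial array 3, and it was 3 in a fit of all 13 arrays. Arg1 and Apoc3 varied within the fibroblastic line, at 5.89 to 8.91 and 5.33 to 7.90, and were not called (adjusted p = 0.189 and 0.160). Both were higher on fibroblastic arrays 1 and 3 than on arrays 2 and 4, and Cp was lower, so these genes followed the pairs of arrays. The actin measure of RNA quality also differed between the pairs, and its part in these levels was not tested.

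**Figure D5:**
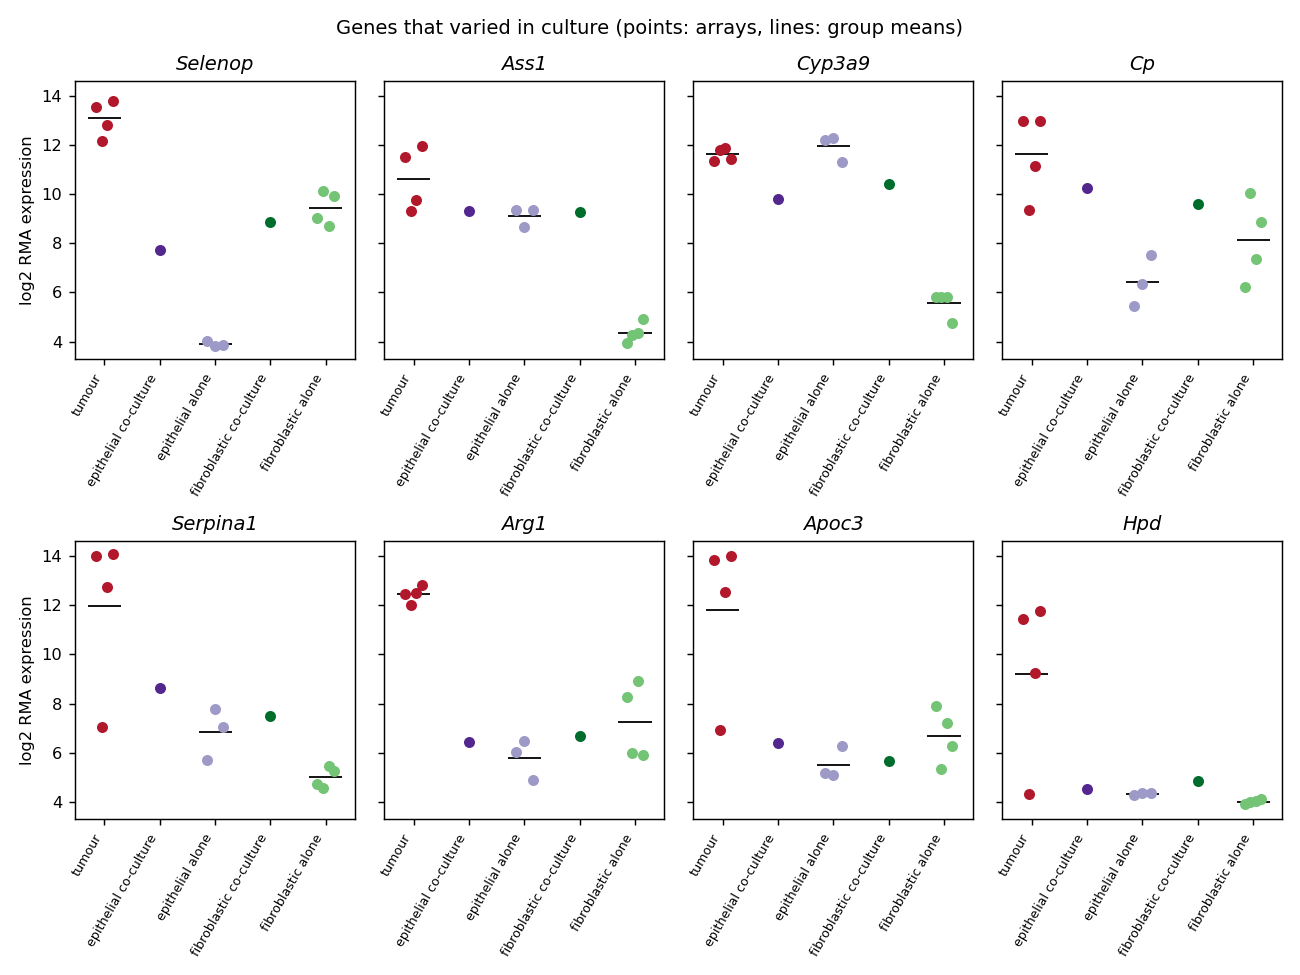
Level (log2 RMA expression) of 8 genes that varied in culture, for each array of the 5 groups, with a line at the mean of groups with several arrays. Selenop and Cyp3a9 lay between the means of the lines on both co-culture arrays, Ass1 (9.32 and 9.28) lay within the epithelial arrays, and Cp and Serpina1 lay above both group means on both.

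Each co-culture array was compared with the line of its label grown alone. Because both arrays carried markers of both lines, this comparison cannot show whether contact between the lines changes these genes. Relative to the epithelial line grown alone, the array labelled epithelial co-culture was higher in Selenop, by 3.82 (adjusted p = 0.00359), and lower in Cyp3a9 (log2 difference -2.15, adjusted p = 0.0486), with 4.87% of all genes called higher, 2.37% lower and 7.24% in either direction. Relative to the fibroblastic line alone, the array labelled fibroblastic co-culture was higher in Ass1 (4.92, adjusted p = 0.000334), Cyp3a9 (4.84, adjusted p = 0.00108) and Hpd (0.85, adjusted p = 0.0271), with 4.78% of all genes called higher, 3.63% lower and 8.41% in either direction. Both arrays carried the marker genes of both lines, and for Selenop, Ass1 and Cyp3a9 the called change ran toward the level of the other line. Selenop was at 7.71 on the epithelial and 8.87 on the fibroblastic co-culture array, Ass1 at 9.32 and 9.28, and Cyp3a9 at 9.81 and 10.41. The change on one array minus that on the other was called for these 3 genes and for 8.43% of all genes, with 1 array behind each change, and is not read as a difference in response between the lines. How much of each change comes from mixed RNA was not tested.

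Hpd was different in that both lines were low in it, and the co-culture arrays read 4.51 and 4.85, so its change was small. Cp was at 10.25 on the epithelial co-culture array, above every array of both lines, and at 9.62 on the fibroblastic one, below fibroblastic array 2 (10.07), and was called in neither comparison (3.81, adjusted p = 0.140, and 1.49, adjusted p = 0.592). Serpina1 was at 8.63 and 7.51 and was called in neither (1.79, adjusted p = 0.182, and 2.52, adjusted p = 0.0655). Otc and Cyp2e1 read 4.13 and 5.61 on the epithelial and 3.91 and 5.28 on the fibroblastic co-culture array. In the epithelial co-culture 1 of the 2 calls was lost in several settings, among them quantile normalization and the mean of probe sets. Each co-culture group is 1 array, assumed in the fit to vary like the lines.

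The tumours were finally set against the 2 co-culture arrays together, which hold both tumour-derived lines but no other tissue. Of the 35 genes, 31 rose in the tumours and 0 fell, against 11.7% of all genes called higher, 21% lower and 32.8% in either direction, with a median log2 difference of 5.27. Alb (7.68, adjusted p = 0.00429), Fgg (7.30, adjusted p = 0.0256) and Fga (7.16, adjusted p = 0.0230) had the largest differences, and Ass1 (1.33, adjusted p = 0.143), Cyp3a9 (1.52, adjusted p = 0.00862) and Cp (1.70, adjusted p = 0.297) the smallest. Serpina1 (3.90, adjusted p = 0.0868) and Hpd (4.51, adjusted p = 0.0506) were not called either. The count fell to 8 without tumour 1, 13 without tumour 3 and 10 without tumour 4, was 34 without tumour 2, and was 5 when only the tumours and the co-culture arrays entered the fit.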

How the data were processed

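Per the labels' protocols, total RNA from Trizol extraction was converted to biotinylated cRNA for Affymetrix arrays. The deposited values are log2 expression values that the authors computed by RMA, per the submitters' processing notes. Its version, and which arrays entered it jointly, are given by no label used here. That values are log2 follows from their span of 2.94 to 14.69. Nothing was normalized again. Of 31099 probe sets, 57 controls were left out, and the 20826 naming 1 gene gave 14217 genes, symbols being updated by Entrez identifier or accession. Scanner intensities and other background corrections were not analysed here.

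Group means were compared by limma (version 3.58.1, R version 4.3.3), two-sided, with Benjamini-Hochberg adjustment over all genes. A fit of 11 arrays held tumours and lines alone, a fit of 9 the cultured arrays, and a fit of 13 the tumours against co-culture. The method was tested on data simulated with a single spread per gene for all groups. That test could not check calls of genes whose spread differs between the groups, as it does for many genes of the set. Members and lists were chosen with earlier results of these data known. Named genes are 8 fixed members, the 3 largest and 3 smallest differences of each tumour comparison, the members called in culture, and the top 2 genes of each other list with any that fell. Arg1 and Apoc1 among the members, and Cyp2c12, Onecut1, Nr1h4, Dcn, Lum and the Kupffer cell genes beyond the top 2, were described after their values were seen. Python 3.11.15, pandas 2.3.3 and matplotlib 3.10.9 made tables and plots.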

Additional observations from a re-analysis of the deposited data

Results flagged for a closer look

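Among groups of 4 arrays, some held an array far from the other 3, measured as the gap to the nearest array over the whole range. Chance alone gives such a gap in about 1 in 20 groups that are independent and not picked for their spread. The genes listed here share the same arrays, and members were chosen with earlier results of these data known. That rate therefore cannot be used to weigh how many genes are listed, and the genes with tumour 2 apart are not separate events. Tumour 2 stood apart at the low end for Alb (0.919), Fgg (0.864), Hp (0.853), Gc (0.846) and Fga (0.838). For the other genes with a wide spread, tumour 3 lay far enough below tumours 1 and 4 that the ratio stayed under the limit, as for Fgb (0.820). In the fibroblastic line a single array stood apart for Cyp3a9 (0.990, array 4 lowest), Ahsg (0.958, array 1 highest) and Apoa2 (0.910, array 4 lowest).

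The change on the epithelial co-culture array minus that on the fibroblastic one, each against its line alone, was 4.40 for Selenop, -4.72 for Ass1 and -6.99 for Cyp3a9. These 3 of the 35 genes passed the test (limma on the 9 cultured arrays, adjusted p under 0.05), as did 8.43% of all genes, so the count says nothing particular to the set. Each change rests on 1 array, and both arrays carried the markers of both lines. The values have the opposite sign to the epithelial minus fibroblastic difference between the lines grown alone, which was -5.56 for Selenop, 4.76 for Ass1 and 6.39 for Cyp3a9. They are therefore not read as a difference in response between the lines.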

How the results depend on the processing

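Calls of the set against the lines held in most settings, and those against co-culture did not. At an adjusted p under 0.01 the counts were 15 of 35 for tumours against the epithelial line, 3 between the lines, 1 for the epithelial co-culture and 5 for tumours against co-culture. A fit of all 13 arrays called 3 genes between the lines. For the epithelial co-culture, 1 gene was called after quantile normalization, with the mean of probe sets, with each probe set on its own, with array weights, and with only that line and its co-culture array. With only the groups compared, tumours against co-culture gave 5. With tumour 2 as the only tumour the counts were 6, 10 and 6 against the epithelial line, the fibroblastic line and the co-culture, and the differences of F2 (-0.36), Serpinc1 (-0.46), Otc (-0.75) and Hpd (-0.01) from the epithelial line and of Serpinc1 (-0.05) from the fibroblastic line turned negative. Leaving out each array gave 30 to 34 calls against the epithelial line and 35 against the fibroblastic line. It gave 3 to 7 between the lines, 1 to 2 for the epithelial co-culture, 2 to 4 for the fibroblastic co-culture and 8 to 34 for tumours against co-culture. Against the epithelial line Serpinc1 was not called without tumour 1, tumour 4 or epithelial array 2 (adjusted p of 0.0509 to 0.0546), and F2 (0.0523) and Serpina1 (0.0504) not without epithelial array 1. Otc and Ass1 lost that call in 15 and 13 settings (up to 0.122 and 0.146). The median range among tumours, 7.12, was 1.94 without tumour 2. Where a call changed, the cause was not tested. The replicate numbers did not pair the samples (correlations of deviations from -0.148 to 0.143, and not every sample correlated best with its own number), and with the number as a replicate block 32, 35 and 5 genes were called against the epithelial line, against the fibroblastic line and between the lines. No paired analysis was possible for co-culture because its single arrays carry no number.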
